A study of Homo sapiens with 4 samples.

Results

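Transcripts of 8 splicing kinase genes were followed in A2780, an established human ovarian adenocarcinoma cell line, by RNA sequencing of total RNA. The genes are the 4 CDC2-like kinases CLK1, CLK2, CLK3 and CLK4, the SR protein kinases SRPK1 and SRPK2, and the related kinases DYRK1A and PRPF4B, chosen by name from a table of 57773 genes. A group of 2 DMSO libraries (vehicle, numbered 1 and 2, no treatment time given) was compared with a group of 2 wogonin libraries (numbered 3 and 4), which received the plant flavone wogonin at 10 ug/mL for 48 h. All 4 libraries carry the genotype label WT. The series concerns wogonin and DNA methylation in ovarian cancer cells, and methylation was not measured by these transcript counts. It is not stated whether the libraries of a group are separate cultures, so p-values here measure the spread between these libraries, which may be technical.

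SR proteins are splicing factors with a tail of repeated serine and arginine residues, and these kinases set the phosphorylation of that tail. The SRPKs work mainly in the cytoplasm, where phosphorylation lets SR proteins be carried into the nucleus by transportin-SR (TNPO3), and the CLKs work in the nucleus, where further phosphorylation releases SR proteins from speckles toward sites of splicing. PRPF4B phosphorylates proteins of the U4/U6.U5 tri-snRNP, DYRK1A phosphorylates splicing factors and the DREAM complex subunit LIN52, and transcripts of CLK1 and CLK4 are known for keeping introns in the nucleus. Transcript counts do not measure kinase protein or activity.

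The start regions of the 4 CLK genes and PRPF4B are shown because the CLK genes split into 2 that rose and 2 that did not pass the test, and PRPF4B was the member that fell. All 8 members matched the RefSeq promoter table (GRCh38.p14), in which PRPF4B stands under its newer symbol PRP4K. Each line holds the 250 bases before an annotated start, 5′ to 3′ on the gene's strand. Capitals mark matches, on either strand, to 5 motifs, none of which contains another. The GC box was searched as GGGCGG. The CCAAT box was searched by the letters of its name. The cyclic AMP response element was searched as TGACGTCA. The E box was searched as CACGTG. The ETS site was searched as CCGGAAGT. CLK3 has 2 annotated starts and both are given. CLK1 has 2 whose windows overlap, and the upstream window is given. Positions are chr2:200864659-200864908 (minus strand) for CLK1, chr1:155273505-155273754 (minus) for CLK2, chr15:74608122-74608371 and chr15:74615586-74615835 (plus) for CLK3, chr5:178627051-178627300 (minus) for CLK4 and chr6:4021050-4021299 (plus) for PRPF4B.
CLK1: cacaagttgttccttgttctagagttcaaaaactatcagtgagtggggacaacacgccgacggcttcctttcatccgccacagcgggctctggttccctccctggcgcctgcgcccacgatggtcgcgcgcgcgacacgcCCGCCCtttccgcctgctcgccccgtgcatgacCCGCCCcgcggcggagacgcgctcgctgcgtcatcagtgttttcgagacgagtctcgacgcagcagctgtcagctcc
CLK2: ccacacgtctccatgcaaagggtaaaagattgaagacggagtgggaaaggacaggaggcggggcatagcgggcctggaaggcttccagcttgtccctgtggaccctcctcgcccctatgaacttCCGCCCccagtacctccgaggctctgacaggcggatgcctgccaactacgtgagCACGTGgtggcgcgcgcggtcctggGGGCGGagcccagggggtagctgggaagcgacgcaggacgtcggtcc
CLK3 start 1: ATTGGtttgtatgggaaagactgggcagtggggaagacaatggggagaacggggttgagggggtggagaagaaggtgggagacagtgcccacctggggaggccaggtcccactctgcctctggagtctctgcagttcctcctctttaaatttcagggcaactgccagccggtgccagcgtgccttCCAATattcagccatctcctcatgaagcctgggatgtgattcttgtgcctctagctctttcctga
CLK3 start 2: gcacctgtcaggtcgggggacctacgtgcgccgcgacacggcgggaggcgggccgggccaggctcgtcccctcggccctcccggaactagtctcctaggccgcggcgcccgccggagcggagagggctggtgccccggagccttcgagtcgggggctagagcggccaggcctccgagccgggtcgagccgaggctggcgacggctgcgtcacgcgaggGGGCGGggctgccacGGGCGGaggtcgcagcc
CLK4: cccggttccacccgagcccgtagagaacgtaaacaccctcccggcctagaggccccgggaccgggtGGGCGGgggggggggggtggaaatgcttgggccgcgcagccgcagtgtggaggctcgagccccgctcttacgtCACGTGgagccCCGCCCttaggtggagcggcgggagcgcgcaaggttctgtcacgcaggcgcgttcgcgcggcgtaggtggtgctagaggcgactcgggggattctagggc
PRPF4B: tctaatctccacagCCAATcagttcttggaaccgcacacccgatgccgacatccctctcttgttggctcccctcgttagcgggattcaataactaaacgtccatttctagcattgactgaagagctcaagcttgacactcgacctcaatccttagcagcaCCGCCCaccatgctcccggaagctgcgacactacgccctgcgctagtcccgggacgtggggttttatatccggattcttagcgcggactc

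The windows did not separate the CLK genes that rose from those that did not pass. A GC box stood in 42.6% of all 35116 windows of this length in the table. It occurred at 2 places each in CLK1, CLK2, CLK4 and the downstream start of CLK3, and at 1 in PRPF4B. The E box, present in 6.35% of all windows, occurred once in CLK2, which rose, and once in CLK4, which did not pass. CCAAT, present in 32.0% of all windows, occurred at 2 places in the upstream window of CLK3 and at 1 in PRPF4B. No cyclic AMP response element or ETS site of these exact letters was in the printed windows. A match is a run of letters and not a measured binding site, and which start these cells used was not measured.

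Library depth was close, and wogonin 3 stood apart in its intron share. Exon reads came to between 11005921 and 11839562 per library. By library totals alone, 3 reads were thus worth 0.253 to 0.273 CPM (counts scaled to a fixed library total). Among genes with annotated exons, the intron share of reads was 7.96% in wogonin 3 and 5.26 to 5.61% in the other 3 libraries, and the intron change of each member is also given without this library. Of 8 epithelial and ovarian carcinoma markers (EPCAM, KRT8, KRT18, KRT19, CDH1, PAX8, WT1, MUC16), none exceeded 9 exon reads in any library, so the labelled adenocarcinoma type was not visible in them. PTPRC, CD3E, CDH5 and VWF were at 0 exon reads in each library, CD68 had 165 to 254, and the fibroblast genes COL1A1, DCN and LUM had 76 to 152, 12 to 23 and 16 to 22. COL1A1 and DCN read counts were lower in both wogonin libraries than in both DMSO libraries. Their part in the kinase results was not tested. In bulk RNA, fewer cells that make a transcript and less of it per cell cannot be told apart.

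All 8 genes passed the filter on low counts in every comparison. In exon reads, the main measure of transcript level, 3 members rose (CLK2, CLK3 and SRPK1), 1 fell (PRPF4B) and 4 did not pass (CLK1, CLK4, SRPK2 and DYRK1A) at an adjusted p under 0.05 in edgeR's quasi-likelihood test. The background was high, since 63.8% of 13449 genes tested passed (32.3% as higher and 31.5% as lower), so 4 of 8 members is not more than the rest of the transcriptome. The groups did not overlap in the same 4 members in TMM-scaled CPM, against 81.9% of all genes. In the authors' TPM, another scaling, they did not overlap in any of the 8 (CLK1, CLK4, SRPK2 and DYRK1A lower in wogonin), against 81.3% of all genes. With library totals alone the genes passing split into 3660 higher and 4977 lower, against 4343 and 4234 with TMM, and with upper-quartile scaling into 3663 and 4976. The median log2 fold change of the 8 was -0.04, and that of all genes was 0.00 to 2 decimals.

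**Figure D1:**
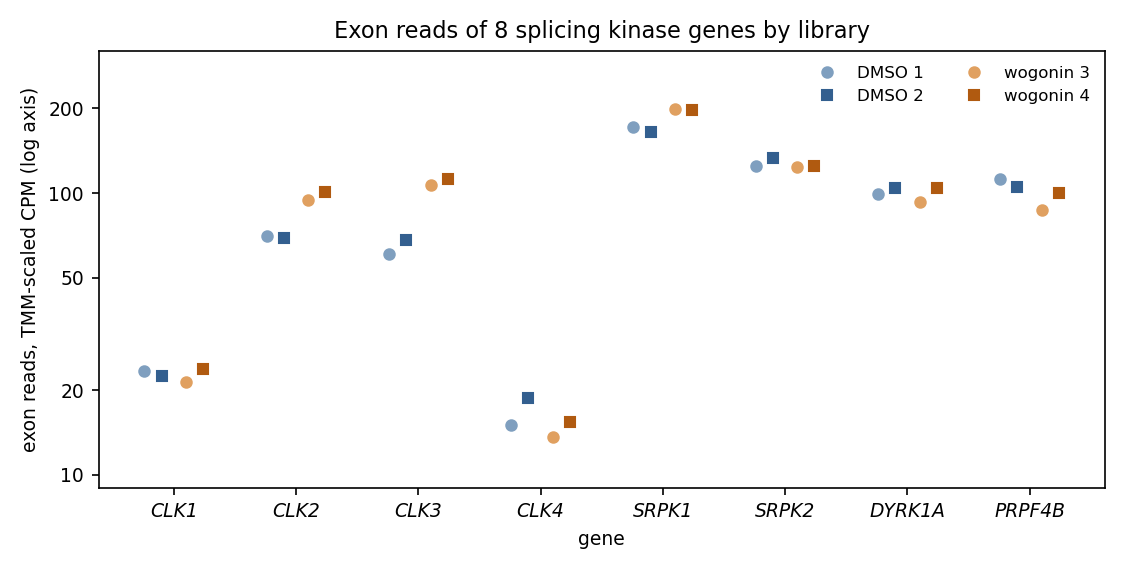
Exon reads of each gene in each library, in TMM-scaled CPM on a log axis, with blue points for DMSO 1 and 2 and orange points for wogonin 3 and 4. CLK2, CLK3 and SRPK1 lie higher in both wogonin libraries than in both DMSO libraries, PRPF4B lies lower, and the other 4 overlap.

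Of the CLK genes, CLK3 changed most. CLK3 (ENSG00000179335, chromosome 15, 74890841 to 74932057, plus strand, in the files' build) gave 718 exon reads in DMSO 1, 838 in DMSO 2, 1150 in wogonin 3 and 1215 in wogonin 4. In TMM-scaled CPM these were 60.8 and 68.3 against 107 and 112. Both wogonin libraries stood above both DMSO libraries by more than the spread within either group. The log2 fold change was 0.76 ± 0.08 (SE, edgeR adjusted p = 2.7e-07), a 1.70-fold rise, with a 95% interval of 0.60 to 0.93. Reads that span an exon junction, which come from spliced RNA, rose alike, from 472 and 603 to 814 and 875 (log2 fold change 0.81 ± 0.09, edgeR adjusted p = 2.8e-07). CLK3 overlaps EDC3 on the opposite strand by 9159 bases, EDC3 had up to 763 exon reads, and the strand setting of the counting is not known, so the 2 genes' reads in the shared stretch cannot be told apart.

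CLK2, whose product also works in insulin signalling in liver, rose as well (ENSG00000176444, chromosome 1, 155232659 to 155248282, minus strand). It gave 831 and 852 exon reads in DMSO and 1016 and 1099 in wogonin, or 70.4 and 69.4 against 94.7 and 101 CPM. The DMSO libraries lay close together and both wogonin libraries were higher. The log2 fold change was 0.49 ± 0.07 (SE, edgeR adjusted p = 2.2e-05), a 1.40-fold rise. Its junction-spanning reads rose by a smaller log2 fold change of 0.36 ± 0.08 (edgeR adjusted p = 5.4e-04). Their share of CLK2 exon reads was 68.6 and 70.1% in DMSO and 65.2 and 62.4% in wogonin, so the groups did not overlap. Set against its other exon reads, the difference was -0.33 ± 0.11 on the log2 scale and did not pass (edgeR adjusted p = 0.093, with no member of the 8 passing, where 3.91% of 10915 genes passed, 1.01% as higher and 2.90% as lower). CLK2 overlaps HCN3 on the opposite strand by 909 bases, HCN3 had up to 236 exon reads, and reads in that stretch cannot be told apart.

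CLK1, the best studied CLK, had 277 and 275 exon reads in DMSO and 229 and 258 in wogonin (ENSG00000013441, chromosome 2, 201717732 to 201729422, minus strand). In CPM the values were 23.5 and 22.4 against 21.3 and 23.8, and the groups overlapped. The log2 fold change was -0.02 (95% interval -0.26 to 0.21, edgeR adjusted p = 0.87), so a change larger than about that interval was not seen and a smaller one was not detectable at this depth. CLK4, the closest relative of CLK1, was the lowest member (ENSG00000113240, chromosome 5, 178029665 to 178057616, minus strand). It gave 177 and 230 exon reads in DMSO and 146 and 167 in wogonin, or 15.0 and 18.7 against 13.6 and 15.4 CPM. Wogonin 4 lay above DMSO 1, and the log2 fold change of -0.22 (95% interval -0.52 to 0.08) did not pass (edgeR adjusted p = 0.18). It was -0.39 without DMSO 1 and -0.05 without DMSO 2. CLK4 junction-spanning reads were 126 and 164 against 100 and 109, lower in both wogonin libraries, with a log2 fold change of -0.31 that did not pass (edgeR adjusted p = 0.089). That value passed in 3 of 11 alternatives: with library totals alone (edgeR adjusted p = 0.034), with upper-quartile scaling (0.033) and without DMSO 1 (0.0199, value -0.47). Without DMSO 2 the value was -0.13 (edgeR adjusted p = 0.60).

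SRPK1, the kinase that primes SR proteins for nuclear import, rose modestly (ENSG00000096063, chromosome 6, 35800743 to 35889119, minus strand). It had 2031 and 2016 exon reads in DMSO and 2130 and 2137 in wogonin, or 172 and 164 against 199 and 197 CPM. The wogonin libraries lay close together, above both DMSO libraries. The log2 fold change was 0.23 ± 0.06 (SE, edgeR adjusted p = 0.0026), a 1.18-fold rise. The call was lost with library totals alone, where the value was 0.14 (edgeR adjusted p = 0.0503) and the median of all genes moved to -0.09. Between 80.2 and 83.2% of SRPK1 exon reads had a single place in the genome, and the value in those reads was 0.20 (edgeR adjusted p = 0.0075). Its junction-spanning reads, 775 and 805 against 771 and 799, gave 0.15 and did not pass (edgeR adjusted p = 0.095). SRPK2, the second SRPK (ENSG00000135250, chromosome 7, 104751151 to 105039755, minus strand), had 1469 and 1638 exon reads in DMSO and 1330 and 1353 in wogonin. In CPM these were 124 and 133 against 124 and 125, which overlap, and the log2 fold change was -0.05 (95% interval -0.19 to 0.09, edgeR adjusted p = 0.49). SRPK2 overlaps KMT2E on the opposite strand by 3658 bases, a gene with up to 2205 exon reads.

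PRPF4B was the member that fell (ENSG00000112739, chromosome 6, 4021501 to 4065217, plus strand). It had 1322 and 1292 exon reads in DMSO and 932 and 1083 in wogonin, or 112 and 105 against 86.9 and 99.7 CPM. Both wogonin libraries were lower, with wogonin 3 lowest. The log2 fold change was -0.22 ± 0.08 (SE, edgeR adjusted p = 0.0202). Its junction-spanning reads fell from 544 and 543 to 383 and 421 (log2 fold change -0.28 ± 0.09, edgeR adjusted p = 0.0112). The exon call was lost with DESeq2 (adjusted p = 0.073), without DMSO 1 (value -0.19, edgeR adjusted p = 0.14) and without wogonin 3 (value -0.12, edgeR adjusted p = 0.25), and the junction call in the same 3 settings (adjusted p = 0.103, 0.067 and 0.104). Between 68.8 and 73.1% of PRPF4B exon reads had a single place, and in those the value was -0.27 (edgeR adjusted p = 0.0080). DYRK1A, a kinase of chromosome 21 whose dose matters in Down syndrome (ENSG00000157540, 38738092 to 38889753, plus strand), had 1173 and 1285 exon reads in DMSO and 1000 and 1128 in wogonin. In CPM the values were 99.4 and 105 against 93.2 and 104 and overlapped, and the log2 fold change was -0.05 (95% interval -0.21 to 0.11, edgeR adjusted p = 0.57).

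The order of the genes by level shifted with CLK2 and CLK3. Levels are compared between genes in TPM, the authors' transcript level scaled by exon length and library. In DMSO the order of mean TPM was SRPK1 at 108 ± 2.02, SRPK2 at 87.1 ± 5.53, CLK2 at 77.9 ± 0.32, PRPF4B at 58.0 ± 1.73, DYRK1A at 42.5 ± 2.16, CLK3 at 25.7 ± 2.46, CLK1 at 19.2 ± 0.36 and CLK4 at 9.13 ± 1.56 (SD, n = 2). No 2 neighbours in that order overlapped between their DMSO libraries. In wogonin CLK2 stood at 98.3 and 99.6 TPM, above SRPK2 at 78.0 and 74.3, and CLK3 at 39.8 and 39.4 TPM stood just above DYRK1A at 36.1 and 38.2. The other wogonin levels were 118 and 111 TPM for SRPK1, 43.2 and 47.1 for PRPF4B, 16.6 and 17.5 for CLK1 and 6.85 and 7.34 for CLK4. The exon length in the tables joins the exons of all annotated transcripts (28 transcripts and 10755 bases for CLK3, 8 and 3843 bases for CLK2), which lowers the TPM of a gene with many annotated exons.

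**Figure D2:**
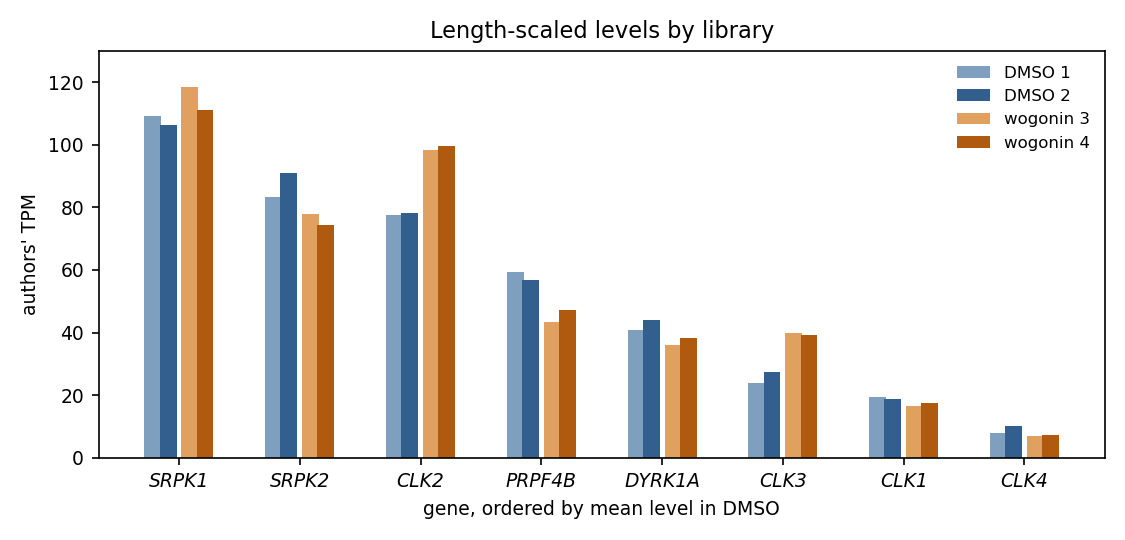
The authors' TPM of each gene in each library, as bars from 0, with genes ordered by their mean in DMSO. The CLK2 bars of wogonin 3 and 4, at 98.3 and 99.6 TPM, pass those of SRPK2, and the CLK3 bars, at 39.8 and 39.4, pass those of DYRK1A.

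Within the CLK family the balance moved toward CLK3. The 4 CLK genes summed to 129 and 135 TPM in DMSO and 162 and 164 TPM in wogonin. CLK3 made up 18.6 and 20.4% of that sum in DMSO and 24.6 and 24.0% in wogonin. CLK1 made up 15.0 and 14.0% against 10.3 and 10.7%, and CLK4 6.22 and 7.59% against 4.24 and 4.48%. CLK2 kept the largest share of the 4, at 60.2 and 58.0% against 60.9 and 60.8%. These shares are descriptions, and fold changes of different genes were not tested against each other.

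Intron reads, which can come from RNA not yet spliced or keeping an intron, were fewer and noisier. With the strand setting unknown, those of CLK2, CLK3 and SRPK2 cannot be told apart from reads of the overlapping genes in the shared stretches. They were scaled to the intron reads of all genes in the same library. Of the 8 members 1 passed, SRPK1, as higher, and 7 did not, where 20.1% of 10495 genes passed (11.3% as higher and 8.81% as lower). The groups did not overlap in 4 members, against 61.0% of all genes. SRPK1 had 82 and 89 intron reads in DMSO, 277 in wogonin 3 and 119 in wogonin 4. Both wogonin libraries were higher, and wogonin 3 was far above the other. After scaling the values were 128 and 134 against 286 and 182 CPM, which gave 0.84 ± 0.27 on the log2 scale (edgeR adjusted p = 0.041). That call was lost in 5 of 11 alternatives, namely library totals alone (edgeR adjusted p = 0.051), DESeq2 (adjusted p = 0.15), scaling by exon reads (edgeR adjusted p = 0.073) and leaving out DMSO 1 (0.40) or DMSO 2 (0.34). Without wogonin 3 the value was 0.48. SRPK1 exon reads rose as well. Tested in 1 model over both read classes, its intron change exceeded its exon change by 0.58 ± 0.28 log2 units and did not pass (edgeR adjusted p = 0.21).

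**Figure D3:**
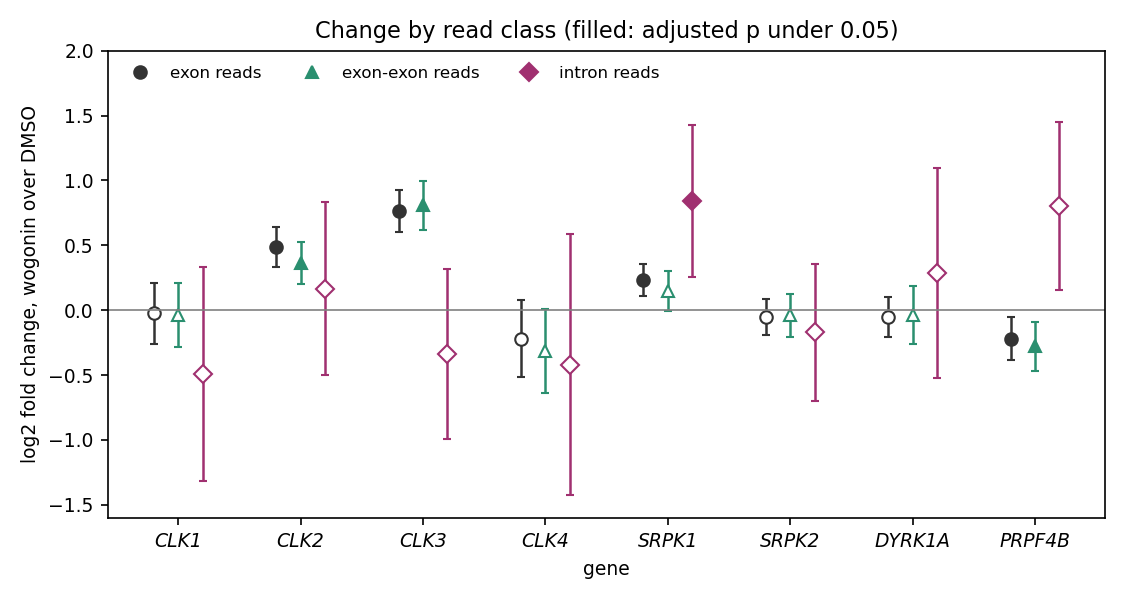
Log2 fold change of wogonin over DMSO for each gene in exon reads (circles), junction-spanning exon-exon reads (triangles) and intron reads (diamonds), with unadjusted 95% intervals from the edgeR fit over 2 libraries a group. Filled symbols passed an adjusted p of 0.05. Exon and junction values have the same sign in each gene, though SRPK1 passed in exon reads and not in junction reads. The intron values of CLK3 (-0.34) and PRPF4B (0.80), neither of which passed, have the other sign from their exon values (0.76 and -0.22). For CLK3 that sign turned with scaling by exon reads.

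PRPF4B had more intron reads where its exon reads were fewer. It gave 31 and 28 intron reads in DMSO and 74 and 54 in wogonin, or 48.3 and 42.3 against 76.4 and 82.5 CPM, so the groups did not overlap. The log2 fold change in intron reads was 0.80 ± 0.30 and did not pass (edgeR adjusted p = 0.076). It passed in 2 of 11 alternatives, without wogonin 3 (0.87, edgeR adjusted p = 0.0138) and without wogonin 4 (0.70, edgeR adjusted p = 0.033). Introns took 2.29 and 2.12% of PRPF4B reads in DMSO, against 7.36% in wogonin 3 (95% Wilson interval 5.90 to 9.14%) and 4.75% in wogonin 4 (3.66 to 6.15%). Tested directly in 1 model over both read classes, the intron change exceeded the exon change by 1.03 ± 0.32 log2 units (edgeR adjusted p = 0.048, in a comparison where 1 member passed as higher and 1 as lower). Of 9475 genes tested there, 10.7% passed, 5.76% as higher and 4.96% as lower. The sign held in 9 of 9 alternatives, with values of 0.97 to 1.48, but the call held in 4. It was lost in unique reads, where only 10 and 7 against 32 and 15 intron reads remained (adjusted p = 0.056), with limma on log2 ratios (0.097), with scaling by exon reads (0.081) and without DMSO 1 (0.40) or DMSO 2 (0.47). Without wogonin 3 the difference was 0.99 (edgeR adjusted p = 0.0076).

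CLK3 showed the opposite arrangement. Its intron reads were 63 and 55 in DMSO and 55 and 58 in wogonin, or 98.2 and 83.0 against 56.8 and 88.6 CPM, which overlap (log2 fold change -0.34 ± 0.31, edgeR adjusted p = 0.48). The value was -0.02 without wogonin 3, -0.73 without wogonin 4 (edgeR adjusted p = 0.0201) and 0.09 with scaling by exon reads. With exon reads higher, the intron share of CLK3 reads went from 8.07 and 6.16% in DMSO to 4.56% in both wogonin libraries (95% Wilson interval 3.52 to 5.89% in wogonin 3 and 3.54 to 5.84% in wogonin 4). The intron change was below the exon change by 1.12 ± 0.33 log2 units (value -1.12, edgeR adjusted p = 0.039). The sign held in 9 of 9 alternatives, from -1.45 to -0.67, and the call in 3 of them. It was lost with library totals alone (edgeR adjusted p = 0.055), unique reads (0.068), limma (adjusted p = 0.11), scaling by exon reads (0.37, value -0.67) and without DMSO 1 (0.50) or DMSO 2 (0.19). Without wogonin 3 the value was -0.82 (edgeR adjusted p = 0.0115).

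**Figure D4:**
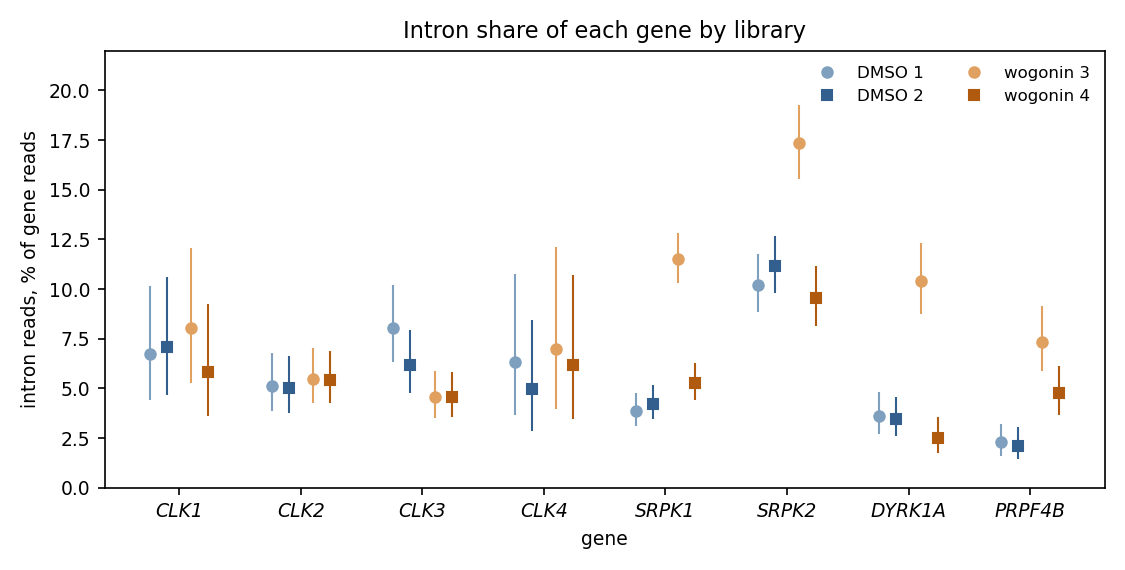
Intron reads as a percentage of all reads of the gene in each library, with 95% Wilson intervals that cover counting error only. SRPK2 and DYRK1A stand high in wogonin 3 alone (17.3 and 10.4%). SRPK1 (11.5% in wogonin 3), PRPF4B and, by little, CLK2 stand higher in both wogonin libraries, and CLK3 lower in both. The shares are not scaled to the intron reads of the whole library. After that scaling the CLK2 intron change was below its exon change (value -0.34) and did not pass.

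The intron shares of SRPK2 and DYRK1A were high in wogonin 3 and not in wogonin 4. SRPK2 had 167 and 206 intron reads in DMSO, 279 in wogonin 3 and 143 in wogonin 4, which made up 10.2, 11.2, 17.3 and 9.56% of its reads. DYRK1A had 44, 46, 116 and 29, or 3.62, 3.46, 10.4 and 2.51%. In reads and shares, wogonin 3 thus lay above and wogonin 4 below both DMSO libraries in these genes. After scaling to the library's intron reads, SRPK2 was at 260 and 311 CPM in DMSO, 288 in wogonin 3 and 218 in wogonin 4. Wogonin 3 then lay between the DMSO libraries. DYRK1A was at 68.6 and 69.5 CPM in DMSO, still below wogonin 3 at 120, with wogonin 4 at 44.3. Neither gene passed (log2 fold change -0.17 and 0.29, edgeR adjusted p = 0.68 and 0.64). For DYRK1A the value was 0.74 without wogonin 4 (edgeR adjusted p = 0.0090) and -0.63 without wogonin 3. For SRPK2 it was -0.38 without wogonin 3 (edgeR adjusted p = 0.0504) and 0.34 with scaling by exon reads. SRPK1 intron reads were likewise most frequent in wogonin 3, at 11.5% of its reads against 3.88, 4.23 and 5.27% in DMSO 1, DMSO 2 and wogonin 4. The part that the high intron share of the whole wogonin 3 library has in these values was not tested beyond this scaling and leaving it out.

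CLK1 and CLK4 had few intron reads, and neither passed. CLK1 had 20 and 21 intron reads in DMSO and 20 and 16 in wogonin, which made up 6.73, 7.09, 8.03 and 5.84% of its reads. Its log2 fold change in intron reads was -0.49 (95% interval -1.31 to 0.33, edgeR adjusted p = 0.40), and -0.35 without wogonin 3. CLK4 had 12 and 12 against 11 and 11 intron reads, with a value of -0.42 (95% interval -1.43 to 0.58, edgeR adjusted p = 0.57), which was -0.12 without wogonin 3 and 0.03 with scaling by exon reads. CLK2 had 45 and 45 against 59 and 63, a value of 0.17 that did not pass (edgeR adjusted p = 0.76), and its intron share was 5.14 and 5.02% in DMSO and 5.49 and 5.42% in wogonin. The CLK2 value in intron reads was 0.49 without wogonin 3 and -0.23 without wogonin 4. In 1 model over both scaled read classes, the CLK2 difference of intron from exon change was -0.34 ± 0.32 log2 units. It did not pass (edgeR adjusted p = 0.55), and its sign is the other way from that of the unscaled share. A change inside these intervals was not detectable at this depth.

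In junction-spanning reads, 2 members rose (CLK2 and CLK3), 1 fell (PRPF4B) and 5 did not pass, where 55.7% of 11251 genes passed (27.6% as higher and 28.0% as lower). The groups did not overlap in 5 members (CLK2, CLK3, SRPK1, CLK4 and PRPF4B), against 77.5% of all genes. SRPK2 had 715 and 809 such reads in DMSO and 639 and 693 in wogonin (log2 fold change -0.04, edgeR adjusted p = 0.71), CLK1 226 and 224 against 182 and 212 (-0.04, edgeR adjusted p = 0.82) and DYRK1A 367 and 368 against 284 and 360 (-0.04, edgeR adjusted p = 0.80). Set against the other exon reads of the same gene, the junction share of no member passed by edgeR, and 1 member, CLK2, had an unadjusted p under 0.05 (0.0053), as did 14.3% of all genes tested. By limma on log2 ratios none passed either, and that tool called 3 of 10915 genes. The junction share of exon reads ranged from 28.4 to 31.9% of exon reads in DYRK1A to 79.5 to 82.2% in CLK1.

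Genes with the pattern most like that of CLK3 were found by the distance between 12 centred log2 CPM values (exon, intron and junction reads in the 4 libraries) over 8764 genes. The nearest were TRIM16L (distance 0.26), ZMIZ2 (0.35), MRPS25 (0.36), POMT2 (0.36) and TMEM231 (0.38), where the median distance was 1.595. Their exon log2 fold changes were 0.70, 0.87, 0.95, 0.78 and 0.72, and their intron values ran from -0.62 to -0.19. With 4 libraries many genes share such a profile.

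Substrates and partners of the kinases moved in both directions in exon reads. Each count below is to be read against all genes, of which 63.8% passed, 32.3% as higher and 31.5% as lower. Because the lists were chosen with earlier results of these data known, the counts are descriptions, and no list was tested as a set. Of 13 SR protein genes tested (SRSF8 was not analysed here), 7 fell, 3 rose and 3 did not pass, with a median of -0.33 against 0.00 for all genes. SRSF3, which stimulates inclusion of many exons, fell from 412 and 471 to 174 and 178 CPM (change on the log2 scale -1.33 ± 0.07, edgeR adjusted p = 2.6e-10). SRSF7 (-1.05) and TRA2B (-0.42) fell too, and the rises, those of SRSF9, SRSF11 and SRSF12 (named after their values were seen), were 0.22, 0.18 and 0.42. In the authors' TPM the groups overlapped for SRSF9 and SRSF11 and not for SRSF12. SRSF9 was at 325 and 313 TPM in DMSO and 357 and 317 in wogonin. SRSF11 was at 74.0 and 78.0 TPM in DMSO and 80.5 and 75.4 in wogonin. Of 16 SR-related and import genes 4 rose, 2 fell and 10 did not pass, with a median of 0.02. TNPO3, the importer of phosphorylated SR proteins, fell from 140 and 144 to 95.6 and 106 CPM (change on the log2 scale -0.49, edgeR adjusted p = 1.3e-05), while RNPS1 (0.37) and PNN (0.40), both proteins of spliced exon complexes, rose.

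**Figure D5:**
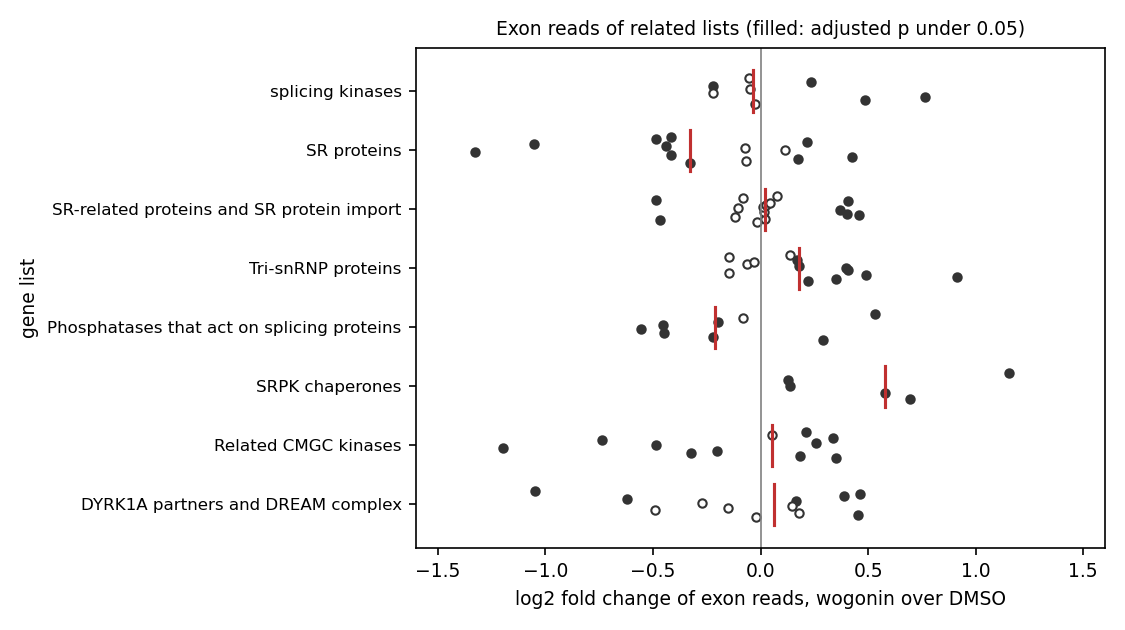
Exon log2 fold change of each tested gene (points) in the kinase set and 7 related lists, with a red bar at the list's median. Filled points passed an adjusted p of 0.05. SR proteins have the lowest median (-0.33) and the SRPK chaperones the highest (0.58).

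Of 13 tri-snRNP genes, which include substrates of PRPF4B, 8 rose, none fell and 5 did not pass, with a median of 0.18. The share that passed was near that of all genes (63.8%, with 32.3% higher). NHP2L1, which binds U4 snRNA, rose from 110 and 110 to 213 and 201 CPM (change on the log2 scale 0.91 ± 0.06, edgeR adjusted p = 3.3e-09), and EFTUD2 (0.35) and PRPF31 (0.41), the next by p-value, rose too. The PRPF4B substrates PRPF6 and PRPF31 rose in exon reads while PRPF4B fell, a call lost in 3 of 12 alternatives. PRPF6, named here after its value was seen, stood at 0.18 (edgeR adjusted p = 0.0203). In junction reads PRPF31 passed and PRPF6 did not (0.15, edgeR adjusted p = 0.061). PRPF6 was at 161 and 161 TPM in DMSO and 170 and 161 in wogonin. Of the 8 rises, those of SNRNP200 (0.17) and DDX23 (0.22), named after their values were seen, overlapped between groups in TPM. SNRNP200 was at 297 and 290 TPM in DMSO and 306 and 292 in wogonin. DDX23 was at 99.6 and 110 TPM in DMSO and 113 and 108 in wogonin. The count of 0 falls is from edgeR exon reads, and in junction reads 1 of the 13 fell.

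Of 8 genes of phosphatases that act on splicing proteins and their regulatory subunits, 5 were lower, 2 higher and 1 did not pass. Their median was -0.21, where 31.5% of all genes were lower and 32.3% higher. Among the 5 lower were the regulatory subunits PPP1R8 (-0.20) and PPP1R10 (-0.45), named after their values were seen. Those subunits do not remove phosphate themselves. By p-value, 2 catalytic subunits of protein phosphatase 1 came first: PPP1CC went from 304 and 306 to 208 and 207 CPM (change on the log2 scale -0.55, edgeR adjusted p = 2.4e-07) and PPP1CB fell by 0.45, while the PP2A subunit PPP2CB rose by a log2 fold change of 0.53. All 5 genes of chaperones and co-chaperones that handle SRPKs or SR protein complexes rose in exon reads, with a median of 0.58, where 32.3% of all genes did. In junction reads 3 of the 5 rose and 2 did not pass. Those are HSP90AA1 and HSP90AB1, named after their values were seen, whose exon changes were small (0.14 and 0.13, edgeR adjusted p = 0.031 and 0.039). In the authors' TPM the groups overlapped for both genes. HSP90AA1 was at 1014 and 1008 TPM in DMSO and 1041 and 976 in wogonin. HSP90AB1 was at 3602 and 3620 TPM in DMSO and 3625 and 3529 in wogonin. HSPA8 rose from 1261 and 1260 to 2913 and 2694 CPM, and AHSA1, an activator of HSP90, and DNAJC8 had log2 fold changes of 0.69 and 0.58.

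Kinases related to the 8 members split evenly. Of 11 tested among 13, 5 rose, 5 fell and 1 did not pass, with a median of 0.05, where 32.3% of all genes rose and 31.5% fell. DYRK1B, the closest relative of DYRK1A, fell from 64.7 and 60.4 to 26.1 and 28.4 CPM (change on the log2 scale -1.20 ± 0.09, edgeR adjusted p = 1.3e-08), DYRK2 fell by 0.48 and HIPK1 rose by a log2 fold change of 0.34. Of 12 tested DYRK1A partners and DREAM complex genes (RBL1 was not analysed here) 4 rose, 2 fell and 6 did not pass, fewer passing than the 63.8% of all genes. TFDP2 (-1.05) and the pocket protein RBL2 (-0.62) fell, and E2F4, the main E2F of the repressive complex, rose by a log2 fold change of 0.45.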

How the data were processed

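The authors deposited 1 table per library. Its count columns, per the file headers, cover exon, intron and exon-exon reads, in total and uniquely placed. The authors' TPM and RPKM values and their fraction of unique or intron reads stand beside them. TPM was used for levels between genes, and RPKM and the fractions were not used further. The submitters' processing notes name builds GRCh37 and hg19. No label or header names the aligner, counter, annotation release or strand mode (not given in the sources used here). In 20986 genes no exons are listed, and these were left out of intron tests.

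The main test, on total counts of all genes kept by filterByExpr, was the robust 2-sided quasi-likelihood test of edgeR 4.0.16 (R 4.3.3) after TMM scaling, with Benjamini-Hochberg adjusted p and a threshold of 0.05. Each read class was scaled by its own totals. Intron against exon and junction against other exon reads were tested as the read class by treatment term of 1 model with the library as a term. An SE is the log2 fold change over the square root of F. DMSO 1 and 2 differed with a chi-square of exon counts over degrees of freedom of 2.98, wogonin 3 and 4 with 7.20 and pairs across groups with 55.5 to 60.2, so no library was a copy.

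Each test was first tested on simulated data. A simulated log2 change of 1 was recovered in 87.8% of exon, 80.4% of junction and 63.9% of intron cases. For intron against exon reads it was 41.5%, and for junction against other exon reads 72.7%. A change of 0.5 was recovered in 58.2, 46.5, 9.78, 1.1 and 14.3%, in that order. All read classes were simulated with the same coefficient of variation, below the 19.0% fitted to intron reads, so recovery at that spread was not tested. Alternatives were DESeq2 1.42.0, limma 3.58.1 on log2 ratios (pseudocount 0.5), other scalings, filters and read columns, and leaving out each library. Upper-quartile scaling was chosen after seeing the data. Named genes are all 8 members, up to 3 per related list with the smallest exon adjusted p, and the 5 genes nearest to the member with the largest exon change. Others are marked or named within a count. The members and lists were chosen with earlier results of these data known.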

Additional observations from a re-analysis of the deposited data

How the results depend on the processing

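No paired analysis was possible because the DMSO and wogonin libraries share no replicate number. Of 408 values of single members under the alternatives, 352 kept direction and side of the threshold, 23 lost a call, 10 gained one and 23 changed sign. None of the 23 passed under either setting, and the cause was not tested. With scaling by exon reads these were CLK3 (0.093), CLK4 (0.031) and SRPK2 (0.34) in intron reads and CLK2 (0.108), CLK4 (0.25) and SRPK2 (0.32) in intron against exon reads. In unique reads it was PRPF4B (0.0043) in junction against other exon reads. The others turned when 1 library was left out, over ranges of -0.108 to 0.057 (CLK1) and -0.135 to 0.032 (DYRK1A) in exon reads. In intron reads the ranges were -0.23 to 0.49 (CLK2) and -0.63 to 0.74 (DYRK1A). In junction reads they were -0.115 to 0.069 (CLK1), -0.10 to 0.037 (SRPK2) and -0.18 to 0.125 (DYRK1A). In intron against exon reads they were -0.43 to 0.0067 (CLK4), -0.33 to 0.019 (SRPK2) and -0.66 to 0.88 (DYRK1A). In junction against other exon reads they were -0.124 to 0.080 (CLK1), -0.0062 to 0.42 (CLK3), -0.042 to 0.15 (DYRK1A) and -0.146 to 0.035 (PRPF4B). CLK2 and CLK3 passed in exon reads in 12 of 12 alternatives and in junction reads in 11 of 11. For the counts that moved by over 1.5 times the cause was not tested. Genes past the threshold in intron reads, 2111 here (1186 higher, 925 lower), were 994 with DESeq2, 1236 with scaling by exon reads (1091 higher, 145 lower, with the median of all genes at 0.52 against 0.05) and 655 to 4010 when 1 library was left out: 655 without DMSO 1, 730 without DMSO 2, 3573 without wogonin 3 and 4010 without wogonin 4. Of the kinases in intron reads, 1 here, 0 passed with library totals alone, DESeq2 or scaling by exon reads, and 0 to 4 with 1 library left out. Intron against exon reads gave 1016 genes (546 higher, 470 lower), 446 with limma on log2 ratios, 430 with scaling by exon reads (401 higher, 29 lower) and 224 to 2765 with 1 library left out (224 without DMSO 1, 250 without DMSO 2, 2283 without wogonin 3, 2765 without wogonin 4). Of the kinases, 2 here, 1 passed with library totals alone, 0 with unique reads, limma or scaling by exon reads, and 0 to 5 with 1 library left out. Junction against other exon reads gave 427 genes, 3 with limma, and 235 to 377 with 1 library left out, with 240 without wogonin 3 and 235 without wogonin 4. Where a group is left with 1 library, that library is assumed to vary like the rest. Depth limits CLK4 and CLK1 introns most, at 11 to 21 reads.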
